A study of Macaca fascicularis with 9 samples.

Results

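Cluster 2 is 1 of 7 clusters of oligodendrocyte nuclei in a single-nucleus RNA survey of the monkey thalamus. Its members are the nuclei that the deposited table of nuclei names oligodendrocytes and numbers as cluster 2, and there were 14449 of them among 61578 oligodendrocyte nuclei and 79994 nuclei in all. Female cynomolgus monkeys, 9 in all and 3 per group, gave the frozen thalamus from which nuclei were isolated, and each animal gave 1 droplet library from 10x Genomics. The study compared 2 routes of delivery for an oligonucleotide (ASO) complementary to MALAT1, an abundant noncoding RNA of the nucleus.

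The animals called ASO here received 1 intrathecal dose of 4 mg of the MALAT1 ASO, an injection into the fluid around the spinal cord. Those called OTV received 4 biweekly intravenous doses of 30 mpk OTV:MALAT1, an ASO joined to a protein carrier that binds the transferrin receptor. The saline animals received 4 biweekly intravenous doses of saline, and tissue collection followed the final dose by 2 weeks. The labels give no age, and no intrathecal vehicle group was analysed here, so agent, route and number of doses cannot be told apart between the ASO animals and the other groups.

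Oligodendrocytes wrap axons in myelin, a membrane rich in lipid and in a few abundant proteins, and supply axons with metabolites. Mature oligodendrocytes differ in the genes they express along a continuum, in which OPALIN marks one kind of cell and other genes mark another. ASOs of the kind that recruit RNase H lower their target RNA in the nucleus, where MALAT1 sits in speckles beside splicing factors.

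Cluster 2 carried the defining RNAs of oligodendrocytes. MOG, a protein of the outer myelin face, stood at 886 CPM (a gene's share of the UMIs summed over the nuclei of an animal, times 10 to the power of 6) as a mean over the 9 animals, against 840 CPM in the other oligodendrocyte nuclei. MAG, a myelin protein of the inner face, stood at 600 against 550 CPM. MBP was not analysed here. Together 9 of the 10 oligodendrocyte markers that were looked up reached 6479 to 8522 CPM in the saline animals, 8059 to 10606 CPM in the ASO animals and 5604 to 7855 CPM in the OTV animals, and none was at 0. Markers of precursor cells (OPCs) summed to between 194 and 722 CPM in cluster 2, where OPC nuclei themselves held 11554 CPM or more. Astrocyte markers summed to 136 to 399 CPM over the 9 animals, against 140 to 327 CPM in the other oligodendrocytes. Myeloid markers summed to 18.8 to 51.9 CPM, against 17.1 to 36.1 CPM. In the OTV animals alone the myeloid sums were 45.5 to 50.5 against 21.9 to 33.6 CPM, without overlap. Neuron markers summed to 215 to 686 CPM in the saline, 177 to 202 CPM in the ASO and 214 to 279 CPM in the OTV animals, against 139 to 617, 114 to 139.7 and 114 to 169 CPM in the other oligodendrocytes. Of the 7 in the files, SLC17A6 was the 1 that reached 0 in an animal. Nuclei named neurons held 2781 to 5476 CPM of the same markers.

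The nuclei of cluster 2 held fewer UMIs than the other oligodendrocyte nuclei in 9 of 9 animals. The median UMI count per nucleus in saline replicates 1, 2 and 3 was 4372, 5151 and 3714 in cluster 2, against 6690, 7732 and 4462 in the other oligodendrocytes. It was 4263, 5080 and 3516 in the ASO animals, and 5391, 3505 and 1707 in the OTV animals. The cluster 2 median was 52.8% to 83.2% of the other median in the same animal, and OTV replicate 3 stood apart, with 72.6% of its cluster 2 nuclei under 2000 UMIs. The summed totals behind each animal's values ranged from 1.31 to 11.9 M UMIs (10 to the power of 6 UMIs), with the fewest nuclei (345) in saline replicate 3. Of the barcodes, 760 occurred in more than 1 library. They were carried by 1522 of all 79994 nuclei and by 274 of the 14449 nuclei of cluster 2.

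Cluster 2 made up 24.4%, 25.8% and 32.1% of the oligodendrocyte nuclei in saline replicates 1, 2 and 3. The share was 24.5%, 17.3% and 21.6% in the ASO animals and 21.3%, 23.7% and 31.5% in the OTV animals. The groups overlapped, with means of 27.4% ± 4.12, 21.1% ± 3.61 and 25.5% ± 5.31 (SD, n = 3). Among nuclei with at least 2000 UMIs, the share in OTV replicate 3 was 12.5%, and the OTV mean was 19.2%.

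**Figure D1:**
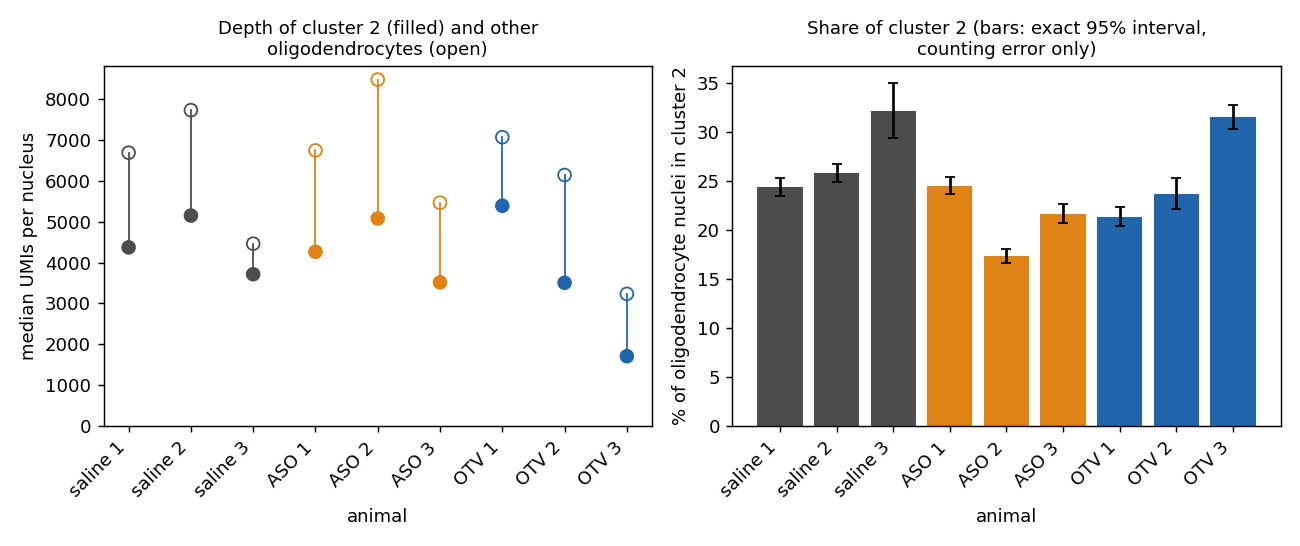
Left, the median UMI count per nucleus (y axis) in cluster 2 (filled circles) and in the other oligodendrocyte nuclei (open circles) of each of the 9 animals (x axis), and right, the share of oligodendrocyte nuclei in cluster 2 with exact 95% intervals that cover counting error only. Cluster 2 lies below the other oligodendrocytes in 9 of 9 animals, and its shares run from 17.3% to 32.1% with overlap between the groups.

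Within each animal, GSN, BCAT1, SPON1 and ENPP6 were several times lower in cluster 2 than in all other oligodendrocyte nuclei, a trait that cluster 1 shares (mean log2 differences of cluster 2 from cluster 1 of 0.21, -0.03, 0.14 and 0.12), while the genes that were higher, led by NTN4, differed by less than 1 on the log2 scale as a mean over animals. The nuclei were clustered on these same RNA levels, so the differences describe the cluster and were not tested. Of 6357 genes with at least 20 CPM in cluster 2 or in the other oligodendrocytes, 516 (8.12%) were higher and 729 (11.5%) were lower in cluster 2 in every animal, and without saline replicate 3 the higher genes numbered 806. None was higher by 1 or more on the log2 scale as a mean over animals, and 65 were lower by as much. The log2 differences are between (CPM + 1) in cluster 2 and (CPM + 1) in the other oligodendrocytes of the same animal, a scale that understates differences of low genes. They are shares of all UMIs, and cluster 2 nuclei held fewer UMIs: counted as UMIs per nucleus, all 12 lower genes named here were lower, but of the 15 higher genes 9 were higher and 6 lower in cluster 2 (THY1, ASIC1, ASTN1, ATP2B2, KIAA0895 and ABCG1), as means over animals.

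NTN4, a secreted protein of the netrin family, led the higher genes. Its log2 difference was 0.91, 0.95 and 0.90 in saline replicates 1, 2 and 3, 0.96, 1.27 and 0.48 in the ASO animals and 1.06, 1.10 and 0.92 in the OTV animals. Its level was 106 ± 62.5 CPM in cluster 2 and 55.9 ± 35.04 CPM in the other oligodendrocytes (SD, n = 9). The ASO replicate 3 value was the lowest of the 9, and the 3 groups overlapped.

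NLGN1, ASTN1, ADGRG1 and THY1 were among the higher genes, which were taken by rank. NLGN1, which encodes neuroligin 1, a partner of neurexins, was the most abundant of those named, with 1893 against 1187 CPM and log2 differences from 0.31 to 0.98. ASTN1, an adhesion protein known from neurons migrating along glia, stood at 149.7 against 99.0 CPM. ADGRG1, an adhesion G protein-coupled receptor of the oligodendrocyte lineage, stood at 29.9 against 17.8 CPM, and THY1, a small surface glycoprotein, at 23.2 against 15.5 CPM. In CPM each of these genes was higher in 9 of 9 animals, while in UMIs per nucleus ASTN1 stood at 0.620 against 0.638 and THY1 at 0.0944 against 0.0974. NLGN1, ASTN1 and THY1 are also known from neurons. Among neuron markers SYT1 stood at 202 against 138 CPM and GRIN2A at 6.48 against 4.38 CPM. GAD1 was the neuron marker that was lower in cluster 2 (27.2 against 28.1 CPM). The part of neuron RNA in the higher genes was not tested.

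Among the other higher genes, TIAM1, an exchange factor for Rac, had a mean log2 difference of 0.73 (0.42 to 1.18), and DENND1B, an exchange factor for a Rab GTPase of endosomes, one of 0.78 (0.45 to 1.42). FCHSD2, a protein of clathrin-coated pits, stood at 118 against 71.5 CPM. ASIC1, an acid-sensing ion channel, had a mean difference of 0.62, DPP10, an auxiliary subunit of potassium channels, one of 0.72, and ATP2B2, a calcium pump of the plasma membrane, one of 0.62. ABCG1, an exporter of cholesterol, stood at 135 against 92.4 CPM. ITM2A, KIAA0895 and PLCL2 complete the 15 higher genes. Cluster 1 shares the higher genes too. Over the 15 genes, the mean log2 difference of cluster 2 from cluster 1 ran from -0.34 (PLCL2) to 0.25 (ATP2B2). FCHSD2, for example, stood at 149 CPM in cluster 1, above its level in cluster 2.

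GSN, which encodes the actin-severing protein gelsolin, was the lower gene whose smallest difference was widest. Its log2 difference was -2.59, -1.94 and -2.08 in the saline animals, -3.05, -2.77 and -2.50 in the ASO animals and -3.36, -2.98 and -2.36 in the OTV animals. Its level was 49.8 ± 23.0 CPM in cluster 2 and 312 ± 115 CPM in the other oligodendrocytes (SD, n = 9). All 9 animals were thus lower by more than 1 on the log2 scale, and the same was true of 10 genes in all.

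BCAT1, an aminotransferase of branched-chain amino acids, had the widest mean difference of the 12 lower genes named, -3.00, with 6.76 against 57.7 CPM. ENPP6, a choline phosphodiesterase known from oligodendrocytes that have just differentiated, stood at 30.5 against 110.6 CPM (mean difference -1.87). It does not stand for its list. Of 7 genes listed for newly formed oligodendrocytes, 1 was higher and 2 lower in every animal, beside 8.12% and 11.5% of all genes. The list median was 0.12. TCF7L2 (0.18), ITPR2 (0.20), RRAS2 (0.32) and TNS3 (0.12) were higher as means, and BCAS1 (-0.10) and FYN (-0.09) lower. In UMIs per nucleus TCF7L2 (1.15 against 1.60) and ITPR2 (2.86 against 3.95) were lower. SPON1, a secreted matrix protein, stood at 52.3 against 185 CPM, and the adhesion genes FLRT2 and SDK2 had mean differences of -2.36 and -2.30. RGS6, a regulator of G protein signalling, had a mean difference of -2.67, and LGR4, a receptor for R-spondins, one of -1.60. KANK4, MCC, PLEKHA6 and BCAR3 were the remaining lower genes, with mean differences from -2.50 to -1.89.

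The differences of lower genes were smallest in saline replicate 3 for 8 of these genes, among them RGS6 (-1.16) and ENPP6 (-1.08). In that animal clusters 3, 5 and 10 made up 17.7% of the other oligodendrocytes, and in ASO replicate 3 they made up 15.8%, against 28.0% to 37.2% in the other 7 animals. The part of that mix in the differences was not tested. At the limit of the rule, NLGN1 (smallest difference 0.307) was inside and HIVEP1 (0.306) outside, and BCAR3 (-0.94) was inside and MMD2 (-0.91) outside.

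**Figure D2:**
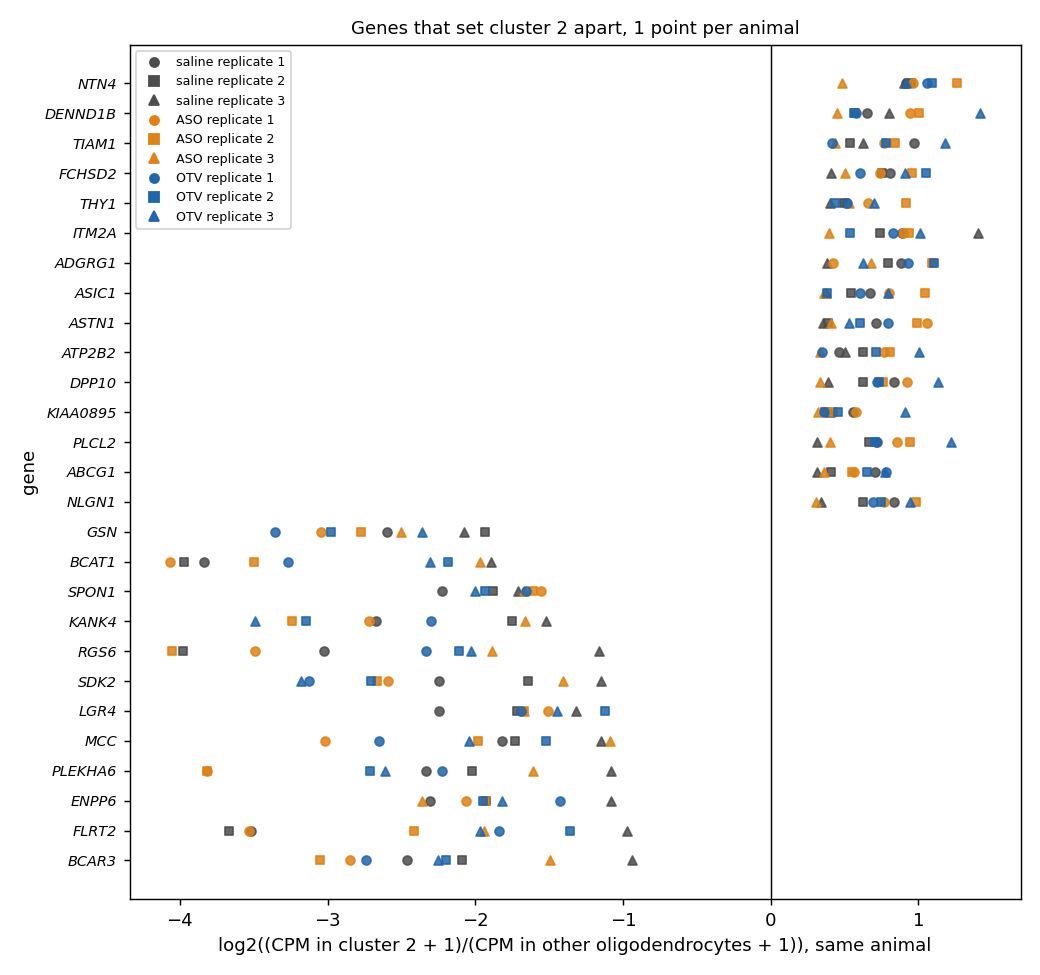
The log2 difference in CPM + 1 between cluster 2 and the other oligodendrocyte nuclei of the same animal (x axis) for the 15 higher and 12 lower genes (y axis), with 1 point per animal, coloured by group and shaped by replicate. The higher genes lie between 0.31 and 1.42, and the lower genes between -4.07 and -0.94, with saline replicate 3 often nearest to 0.

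Against single clusters, cluster 2 differed in no gene by 1 or more from cluster 1 and in the most genes from cluster 10. With cluster 1 as the comparison, no gene differed by 1 or more on the log2 scale as a mean over 9 animals. With cluster 0 there were 27 higher and 21 lower genes, with cluster 3 141 and 123, with cluster 5 216 and 236, and with cluster 10, over 8 animals, 337 and 404. For cluster 8, whose nuclei hold few UMIs and come mostly from OTV replicate 1 (1657 of 2768), the counts over 8 animals were 76 and 27. OTV replicate 3 held 1 nucleus of cluster 8 and was left out, and OTV replicate 2 held 21. The coarser clusterings in the deposited table grouped the nuclei otherwise. At a resolution of 0.2, 96.1% of cluster 2 fell into 1 coarse cluster with 4063 nuclei of cluster 0, 1967 of cluster 8 and 1 of cluster 1, while at 0.1 all of cluster 2 shared a coarse cluster with 14299 nuclei of cluster 1 and 14072 of cluster 0.

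The genes of the lower set formed a gradient over the 7 clusters. GSN stood at 40.3 CPM in cluster 1, 49.8 in cluster 2, 190 in cluster 0, 217 in cluster 8, 495 in cluster 3, 728 in cluster 5 and 1043 in cluster 10. These are means over 9 animals, and over 8 for clusters 8 and 10. ENPP6 followed the same order at its ends, with 27.7 CPM in cluster 1, 30.5 in cluster 2 and 266.7 in cluster 10. NTN4 ran the other way, with 105 CPM in cluster 1, 106 in cluster 2, 48.1 in cluster 0 and 2.62 in cluster 10. NLGN1 ranged from 2211 CPM in cluster 1 and 1893 in cluster 2 to 96.2 in cluster 10, and CNTN1, an adhesion protein of axons and glia, from 1713 and 1315 to 33.6 CPM.

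**Figure D3:**
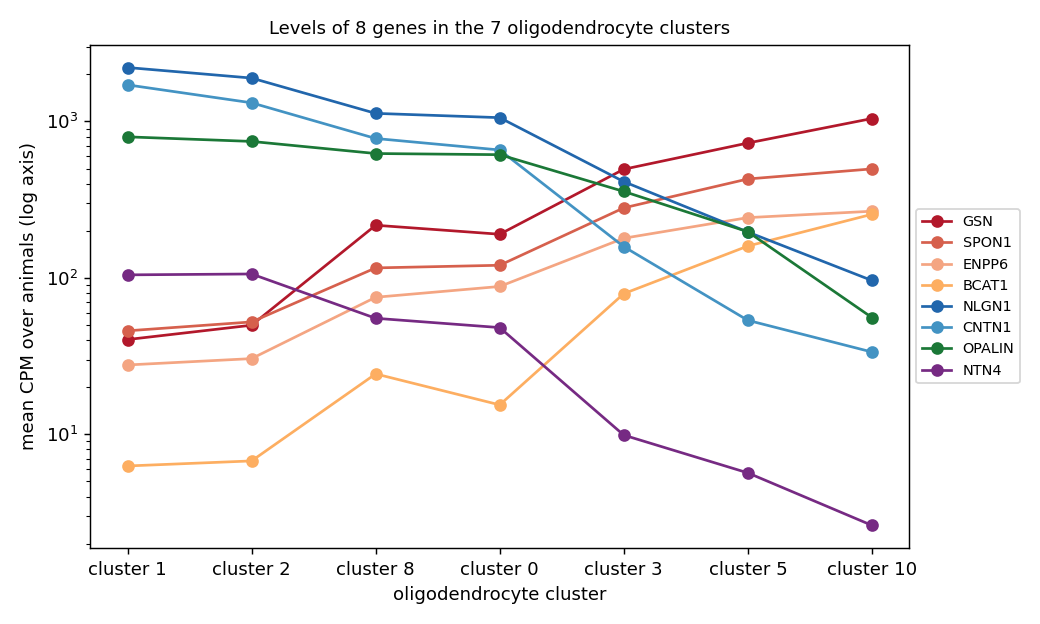
Mean CPM over animals (y axis, log scale) of 8 genes in the 7 oligodendrocyte clusters (x axis, drawn in the order of rising GSN except for clusters 8 and 0, which lie close). The means of clusters 8 and 10 are over 8 animals. Clusters 1 and 2 share the lowest GSN levels (40.3 and 49.8 CPM) and the highest NTN4 levels (105 and 106 CPM), and cluster 10 has the reverse (1043 and 2.62 CPM).

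The differences of cluster 2 from cluster 1 were modest, with none of 1 or more on the log2 scale as a mean over animals. By the same ordering, and chosen after their values were seen, PTPRZ1, a receptor phosphatase of the oligodendrocyte lineage, was the first higher gene (49.5 against 33.7 CPM, mean log2 difference 0.53). It is also one of the 7 OPC markers, at 3890 CPM in OPC nuclei. All 7 had higher mean CPM in cluster 2 than in all other oligodendrocytes, among them VCAN (12.3 against 9.01 CPM) and LHFPL3 (236 against 208 CPM). This was not particular to OPC markers. The astrocyte, myeloid and neuron markers were higher too, such as AQP4 (19.1 against 12.9 CPM) and CSF1R (7.48 against 5.69 CPM). The exceptions were SLC1A3 (105 against 116 CPM) and GAD1 (27.2 against 28.1 CPM). The part of RNA from other cell types was not tested. Against cluster 1, PTPRZ1 was followed by HAPLN2, a hyaluronan link protein of nodes of Ranvier (520 against 382 CPM, 0.38), and NRG1, a growth factor of the neuregulin family (43.1 against 29.0 CPM, 0.50). The first lower genes were CDH7, a cadherin (75.7 against 112 CPM, -0.60), and PCDH7, a protocadherin (278 against 475 CPM, -0.76). Median depth differed between the same clusters, with more UMIs per nucleus in cluster 1 in 9 of 9 animals. Against cluster 0, KANK1, a regulator of actin, was the first higher gene, with 224 against 55.4 CPM and log2 differences from 1.21 to 2.69.

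Of 14 genes of adhesion between axon and glia with at least 20 CPM, 6 were higher and 1 lower in every animal, where 8.12% of all 6357 genes were higher and 11.5% lower, with a median of 0.17 over the list against -0.00 over all 6357 genes. CNTN1 was higher by 0.66 (0.20 to 1.05), CADM2, a cell adhesion molecule, by 0.57 (0.24 to 0.89) and CNTNAP2, a neurexin-like protein, by 0.39 (0.19 to 0.82). In UMIs per nucleus CNTN1 stood at 5.59 against 5.46, CADM2 at 14.9 against 15.6 and CNTNAP2 at 0.204 against 0.237. CADM1, a relative of CADM2, was lower in every animal (mean -0.18).

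Myelin genes differed in both directions. OPALIN, a myelin glycoprotein, was higher by 0.44 (745 against 552 CPM), and MOBP, a myelin protein made from local RNA, was lower (-0.32, 414 against 521 CPM), both in 9 of 9 animals. CNP (0.03) and CLDN11 (0.00) had mean differences near 0, and 3 of 11 genes were higher and 1 lower in every animal, beside 8.12% and 11.5% of all genes. Among transcription factors, OLIG2, which specifies the lineage, was higher by 0.44 and MYRF, which drives myelin genes, by 0.21, while NKX2-2, a factor of early differentiation, was lower (-0.26). In UMIs per nucleus OPALIN (3.21 against 3.66), OLIG2 (0.150 against 0.171) and MYRF (1.56 against 2.14) were lower in cluster 2, so their direction depends on the scaling. Of 10 genes of mature subtypes, OPALIN included, 3 were higher and 2 lower in every animal, beside the same shares of all genes. PLXDC2 was higher by 0.49 and ANLN lower (-0.44), both in 9 of 9 animals. RBFOX1 was higher in 8 of 9 (mean 0.28). In UMIs per nucleus PLXDC2 (0.153 against 0.165) and RBFOX1 (0.488 against 0.602) were lower.

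Of 7 genes of gap junctions and ion transport, 4 were lower and 1 higher in every animal, again beside 11.5% and 8.12% of all genes. GJB1, a connexin of myelin, had a mean difference of -0.50, CLCN2, a chloride channel, one of -0.29 and KCNJ10, a potassium channel of glia, one of -0.16. KCNK10, a potassium leak channel, was higher by 0.52 in CPM, with 1.78 against 1.96 UMIs per nucleus. Among 10 genes of cholesterol and myelin lipid synthesis none was higher and 3 were lower in every animal, beside the same shares of all genes, among them UGT8, which makes galactosylceramide, and MVK, an enzyme of cholesterol synthesis, each with a mean difference of -0.16.

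MALAT1, the target of both oligonucleotides, was lower in the treated animals. It took 6.88%, 7.47% and 6.34% of the UMIs of cluster 2 in saline replicates 1, 2 and 3. The share was 5.16%, 4.25% and 6.07% in the ASO animals and 3.95%, 3.53% and 3.39% in the OTV animals. The 3 groups did not overlap, with OTV lowest, and ASO replicate 3 was the treated animal nearest to saline.

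The mean MALAT1 share was 6.90% ± 0.567 in saline animals (SD, n = 3), 5.16% ± 0.909 after ASO and 3.62% ± 0.288 after OTV, so that the treated means were 74.8% and 52.6% of saline. The exact permutation test of the sum of squares between groups, over the 280 partitions of the animals, gave p = 0.00357, the smallest it can give. That test does not regard the order of the groups. By the two-sided exact test each pair of groups gave p = 0.1, the smallest for 3 against 3. By edgeR's quasi-likelihood test, adjusted with Benjamini-Hochberg over 15135 genes, MALAT1 fell by 0.90 on the log2 scale in OTV against saline (SE 0.15, adjusted p = 0.00299). The ASO against saline value was -0.46 (SE 0.15, edgeR adjusted p = 0.275), and OTV against ASO gave -0.44 (SE 0.15, edgeR adjusted p = 0.0530), which passed the threshold of 0.05 in 7 of 15 alternative settings.

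In the other oligodendrocytes MALAT1 stood at 74.1% of saline in the ASO and 52.9% in the OTV animals. The difference in response between cluster 2 and the rest, fitted with the animal as a block, was 0.01 on the log2 scale for ASO against saline (95% interval -0.14 to 0.16) and -0.01 for OTV against saline (-0.16 to 0.13). No cluster 2 nucleus lacked a MALAT1 UMI. With each nucleus thinned to 1000 UMIs, the median nucleus held 68, 74 and 62 MALAT1 UMIs in the saline animals, 54, 42 and 60 in the ASO animals and 38, 35 and 34 in the OTV animals.

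**Figure D4:**
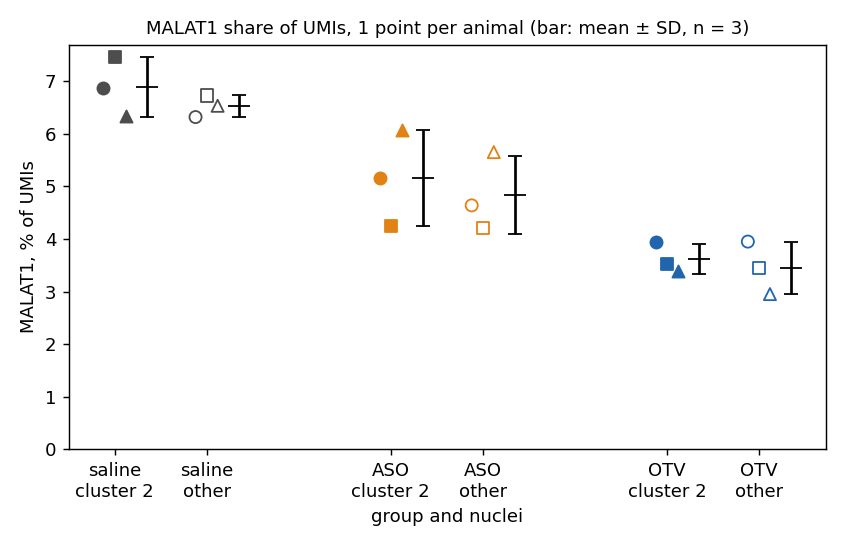
MALAT1 as a percentage of UMIs (y axis) in cluster 2 (filled) and in the other oligodendrocyte nuclei (open) by group (x axis), with 1 point per animal and the mean with its SD (n = 3) beside them. In cluster 2 the saline animals lie between 6.34% and 7.47%, the ASO animals between 4.25% and 6.07% and the OTV animals between 3.39% and 3.95%.

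The count of genes called after intrathecal ASO depended on the test. A gene was called where the p of edgeR's quasi-likelihood test, after Benjamini-Hochberg adjustment, was under 0.05. The genes named first for each contrast in cluster 2 were picked among called genes without overlap between its groups. Their lack of overlap is thus no separate support. ASO against saline gave 37 of 15135 genes (0.244%), 17 higher (0.112%) and 20 lower (0.132%). An unadjusted p under 0.05 was reached by 1518 genes, where 757 are expected by chance, and the calls numbered 306 with DESeq2's Wald test and 100 without a filter on low counts. The count rests on single animals: it was 10 without saline replicate 1, 13 without saline replicate 2, 11 without ASO replicate 1, 16 without ASO replicate 3 and 61 without OTV replicate 1.

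GIPR, a receptor for the gut hormone GIP, rose most clearly. Saline animals had 1.07, 1.42 and 0.76 CPM, ASO animals 57.4, 47.3 and 39.9 CPM and OTV animals 0.60, 1.28 and 1.27 CPM. Every ASO animal was far above all 6 others, and the log2 change was 5.25 (SE 0.30, edgeR adjusted p = 4.51e-05). KIF6, a kinesin, rose by 0.99 (SE 0.11, edgeR adjusted p = 0.00754), from 187, 167 and 189 CPM to 355, 337 and 411 CPM, with OTV animals at 133 to 149.8 CPM. The calls of GIPR and KIF6 held in all 15 alternative settings.

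CD274, the immune checkpoint ligand PD-L1, stood at 1.93, 2.68 and 1.53 CPM in saline, 14.7, 14.8 and 30.1 CPM in ASO and 2.03, 1.70 and 1.91 CPM in OTV animals. The ASO animals did not overlap the others (log2 change 3.10, SE 0.37, edgeR adjusted p = 0.00821), and the edgeR adjusted p rose above 0.05, to at most 0.140, without saline replicate 1 and with totals thinned to be equal. AGT, the precursor of angiotensin, stood at 3.87, 7.12 and 5.35 CPM in saline and at 26.9, 48.2 and 40.8 CPM in ASO animals (log2 change 2.77, SE 0.34, edgeR adjusted p = 0.0109, and 0.0554 without saline replicate 1). CD274 was the 1 called gene of 9 tested in the list of antigen presentation and interferon, beside 0.244% of all genes.

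PCSK6, a proprotein convertase, fell most clearly among nuclear genes. It was at 126, 88.3 and 169 CPM in saline, at 19.5, 25.4 and 21.7 CPM in ASO and at 96.6, 136 and 77.8 CPM in OTV animals. The ASO animals lay below all 6 others, and the log2 change was -2.54 (SE 0.27, edgeR adjusted p = 0.00735). COL9A1, a collagen chain, fell by 1.83 on the log2 scale (SE 0.21, edgeR adjusted p = 0.00735), from 584, 819 and 728 CPM to 212, 187 and 213 CPM. Both calls held in all 15 alternative settings.

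SOX6, a transcription factor of the lineage, and KCNMB4, a subunit of large-conductance potassium channels, fell by 1.09 and 1.03 on the log2 scale. SOX6 was at 126.5, 126 and 185 CPM in saline and at 69.5, 69.4 and 68.6 CPM in ASO animals. KCNMB4 was at 364, 445 and 314 CPM in saline and at 190.4, 178 and 198 CPM in ASO animals. Their edgeR adjusted p values were 0.0217 and 0.0237, and each call was lost in 5 of 15 alternatives (highest adjusted p 0.113 and 0.102), among them without saline replicate 1 and without ASO replicate 1, 2 or 3 in turn. KCNMB4 was also lost without saline replicate 2, and SOX6 with only the 6 animals compared.

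In ASO against saline, where 0.244% of all genes were called and 0.132% called lower, edgeR called 0 of 11 myelin genes, where 1 had an unadjusted p under 0.05 and DESeq2 called 1. It called 0 of 11 transcription factors (3 at an unadjusted p under 0.05 and 0 by DESeq2) and 0 of 14 adhesion genes (2 and 1). Of 13 mitochondrially encoded genes 4 were called, all lower, and 13 had an unadjusted p under 0.05. In OTV against saline 11 of the 13 were called, all higher, where 6.53% of all genes were. The ASO calls of COX1, COX2 and CYTB were lost in 8 to 10 of the 15 alternatives, among them without any single saline replicate 1 or 2 or ASO replicate, and that of ND5 with totals thinned to be equal. Summed over the 13 genes, mitochondrial RNA stood at 286, 142 and 50.4 CPM in saline, 3.55, 9.09 and 7.48 CPM in ASO and 1701, 555 and 966 CPM in OTV animals. The 3 groups did not overlap, and the same order held in the other oligodendrocytes, at 46.2 to 288, 3.85 to 7.90 and 546 to 1369 CPM. Mitochondrial RNA is made outside the nucleus, and its part in the other differences between groups was not tested.

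After intravenous OTV many more genes were called, in cluster 2 and in the other oligodendrocytes alike. In the others, a larger set of nuclei, the same test called 3549 of 19494 genes in OTV against saline. There it called 65 in ASO against saline and 4957 in OTV against ASO. In cluster 2, OTV against saline gave 2474 of 15135 genes (16.3%), 988 higher (6.53%) and 1486 lower (9.82%). Leaving out saline replicate 1, saline replicate 2 or OTV replicate 3 reduced the count to 1408, 1337 and 1532, and thinning all animals to equal totals to 1247. Among other cell types, myeloid markers summed to 45.5 to 50.5 CPM in the OTV and 18.8 to 51.9 CPM in the saline animals, and neuron markers to 214 to 279 CPM and 215 to 686 CPM. Their part in the calls was not tested.

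The clearest falls were of RASGRP1, FAR2 and PRSS48. RASGRP1, an exchange factor for Ras, was at 93.4, 98.5 and 114 CPM in saline, 143, 128 and 162 CPM in ASO and 21.9, 18.3 and 14.6 CPM in OTV animals. OTV animals lay below all 6 others (log2 change -2.41, SE 0.17, edgeR adjusted p = 9.77e-05). FAR2, which makes fatty alcohols, fell by 2.76 on the log2 scale (SE 0.20, edgeR adjusted p = 9.77e-05), from 52.6, 56.3 and 48.9 CPM to 6.43, 8.51 and 8.58 CPM. PRSS48, a serine protease, fell by 3.77 (SE 0.31, edgeR adjusted p = 0.000155), from 70.9, 77.5 and 47.3 CPM to 5.36, 4.68 and 3.81 CPM.

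ANGPT2, FGL1 and PTPN6 were also among the falls. ANGPT2, a ligand of the TIE2 receptor, was at 31.5, 34.2 and 31.3 CPM in saline and at 4.77, 3.40 and 3.49 CPM in OTV animals (log2 change -2.96). FGL1, a fibrinogen-like secreted protein, was at 135, 156 and 118 CPM in saline and at 23.5, 21.7 and 15.6 CPM in OTV animals (-2.71). PTPN6, a tyrosine phosphatase best known from blood cells, fell by 2.15. MRPS18A fell by 1.59 and LCA5L fell by 2.48. These genes were picked for groups that did not overlap, and each edgeR adjusted p was at most 0.000219.

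The clearest rises included KAT2A, CTBP1, IPO13, TELO2 and SOX2. KAT2A, a histone acetyltransferase, was at 30.2, 30.2 and 25.96 CPM in saline, 20.1, 27.5 and 24.6 CPM in ASO and 90.3, 85.5 and 99.4 CPM in OTV animals. CTBP1, a corepressor, rose by 1.51 on the log2 scale, IPO13, a nuclear transport receptor, by 1.23, and TELO2, a partner of PIKK kinases, by 2.20, from 10.1, 8.79 and 8.40 CPM to 40.9, 35.7 and 48.3 CPM. SOX2, a transcription factor of progenitors and glia, rose by 1.41, from 38.7, 36.6 and 44.3 CPM to 92.3, 112 and 105 CPM. By the rule of naming, the OTV animals lay above all saline animals in each of these genes. The edgeR adjusted p values were 0.000329 or less, and no alternative setting ended a call. HID1 (1.52) and BCL2L2-PABPN1 (1.28) rose as well, and the latter is a read-through of 2 neighbouring genes whose reads the counting could split.

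Among myelin genes, 3 of 11 fell and none rose in OTV against saline, where 9.82% of all genes fell and 6.53% rose, with a list median of -0.12 against -0.00 over all genes tested. CLDN11, the tight junction protein of myelin, was at 547, 477 and 350 CPM in saline, 452, 544 and 616 CPM in ASO and 256, 205 and 184 CPM in OTV animals. OTV animals lay below all others (log2 change -1.06, SE 0.20, edgeR adjusted p = 0.00609). OPALIN fell by 1.00 on the log2 scale (SE 0.20, edgeR adjusted p = 0.00794), from 926, 955 and 798 CPM to 523, 480 and 304 CPM. MAL, a protein of myelin membrane traffic, fell by 0.66, with an edgeR adjusted p of 0.0237 that was 0.0650 at its highest, with the call lost without saline replicate 1, saline replicate 2, OTV replicate 2 or OTV replicate 3.

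MYRF rose while these myelin genes fell. It was at 293, 270.0 and 343 CPM in saline, 305, 348 and 345 CPM in ASO and 535, 523 and 514 CPM in OTV animals. The OTV animals lay above all 6 others (log2 change 0.83, SE 0.12, edgeR adjusted p = 0.00131). It was the 1 called gene of 11 transcription factors tested, where 16.3% of all genes were called. LRRTM3, a synaptic adhesion protein, fell by 1.33 (SE 0.18, edgeR adjusted p = 0.000897), from 584, 591 and 517 CPM to 234, 239 and 185 CPM, and among the 14 adhesion genes CNTN2 rose by 0.41, a call that 10 of 15 alternatives ended (highest edgeR adjusted p 0.176).

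Of the nuclear speckle and splicing genes, 5 of 14 rose and none fell in OTV against saline, where 6.53% of all genes rose, with a list median of 0.34 against -0.00 over all genes tested. SRRM2, a scaffold of speckles, was at 261, 259 and 248 CPM in saline and at 401, 594 and 709.9 CPM in OTV animals (log2 change 1.17, SE 0.18, edgeR adjusted p = 0.00193). OTV replicate 3, which had the shallowest nuclei, was the highest. SRSF11, SRRM1, PNISR and LUC7L3, factors or partners of the splicing machinery, rose by 0.88, 0.81, 0.71 and 0.69. Of these, the calls of SRSF11, SRRM1 and PNISR were lost without saline replicate 2, with highest edgeR adjusted p values of 0.0600, 0.0749 and 0.0758 over the alternatives, those of SRRM1 and PNISR also without saline replicate 1, saline replicate 3 or OTV replicate 3, and that of PNISR without OTV replicate 2 and with only the 6 animals compared. LUC7L3, named after its values were seen, had an edgeR adjusted p of 0.0409 and lost its call in 8 of 15 alternatives (highest 0.124), among them without any single saline replicate, ASO replicate 1 or 3 or OTV replicate 2 or 3.

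RPS6 and RPLP0, proteins of the cytosolic ribosome, fell by 1.69 and 1.15 on the log2 scale, and they were the called ones of 5 tested, where 9.82% of all genes fell. RPS6 was at 129, 124 and 100.03 CPM in saline and at 43.0, 28.1 and 35.3 CPM in OTV animals, without overlap. Ribosomal protein genes have near-identical copies in the genome, so the counting could split their reads. SQLE, an enzyme of cholesterol synthesis, fell by 1.06 and was the 1 called gene of 19 in the lipid list, where 16.3% of all genes were called. The calls of RPLP0 and SQLE were lost without saline replicate 1, saline replicate 2, OTV replicate 2 or OTV replicate 3 (highest edgeR adjusted p 0.112 and 0.0732). Among 13 genes of endosomal uptake, edgeR called 0 in each of the 3 contrasts, beside 0.244%, 16.3% and 23% of all genes, where 1, 1 and 2 had an unadjusted p under 0.05 and DESeq2 called 0, 0 and 1.

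In the remaining lists the counts in OTV against saline stand beside 16.3% of all genes called, 6.53% higher and 9.82% lower. NEU4, a sialidase, rose by 1.42 as the 1 called gene of 9 in the list of newly formed oligodendrocytes, with an edgeR adjusted p of 0.0305 that reached 0.130 over the alternatives. In the list of mature subtypes PLXDC2, a membrane protein, rose by 1.43, and APOD, a lipocalin, fell by 1.80 beside OPALIN, among 12 genes tested. DNAJA1, a cochaperone, fell by 0.91, the 1 called of 8 heat shock genes, and ATF4, the transcription factor of the stress response, rose by 1.24, the 1 called of 8 stress genes. KCNAB1, a subunit of potassium channels, fell by 2.38, the 1 called of 9 genes of gap junctions and potassium transport. NEU4, PLXDC2, APOD, KCNAB1 and ATF4 lost their calls without saline replicate 1, among other alternatives, and DNAJA1 lost its call only without saline replicate 2 of the 15 alternatives.

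Among the genes that set cluster 2 apart, BCAT1, FLRT2 and RGS6 are given here for their moves with treatment. They were picked outside the rule for naming genes and do not stand for the set. Of all genes tested, 16.3% were called in OTV against saline. BCAT1, low in the cluster, was at 3.11, 4.10 and 3.82 CPM in saline, 2.11, 1.90 and 2.55 CPM in ASO and 10.0, 17.0 and 16.2 CPM in OTV animals. FLRT2 was at 9.56, 7.20 and 12.98 CPM in saline, 5.96, 33.3 and 8.57 CPM in ASO and 69.5, 84.7 and 40.7 CPM in OTV animals. In both genes the OTV animals lay above all others, and they rose by 1.97 and 2.83 on the log2 scale (edgeR adjusted p = 0.00214 and 0.0232). RGS6 rose by 2.79 (edgeR adjusted p = 0.00878), and stood at 20.5 ± 25.2 CPM in cluster 2 over all animals (SD, n = 9). For each of these genes the log2 difference from the other oligodendrocytes overlapped between saline and OTV animals. That of BCAT1 was -3.83, -3.97 and -1.90 in saline and -3.27, -2.18 and -2.30 in OTV animals. The call of FLRT2 was lost without a filter on low counts and without saline replicate 1, saline replicate 2, OTV replicate 1 or OTV replicate 2 (highest edgeR adjusted p 0.0947).

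**Figure D5:**
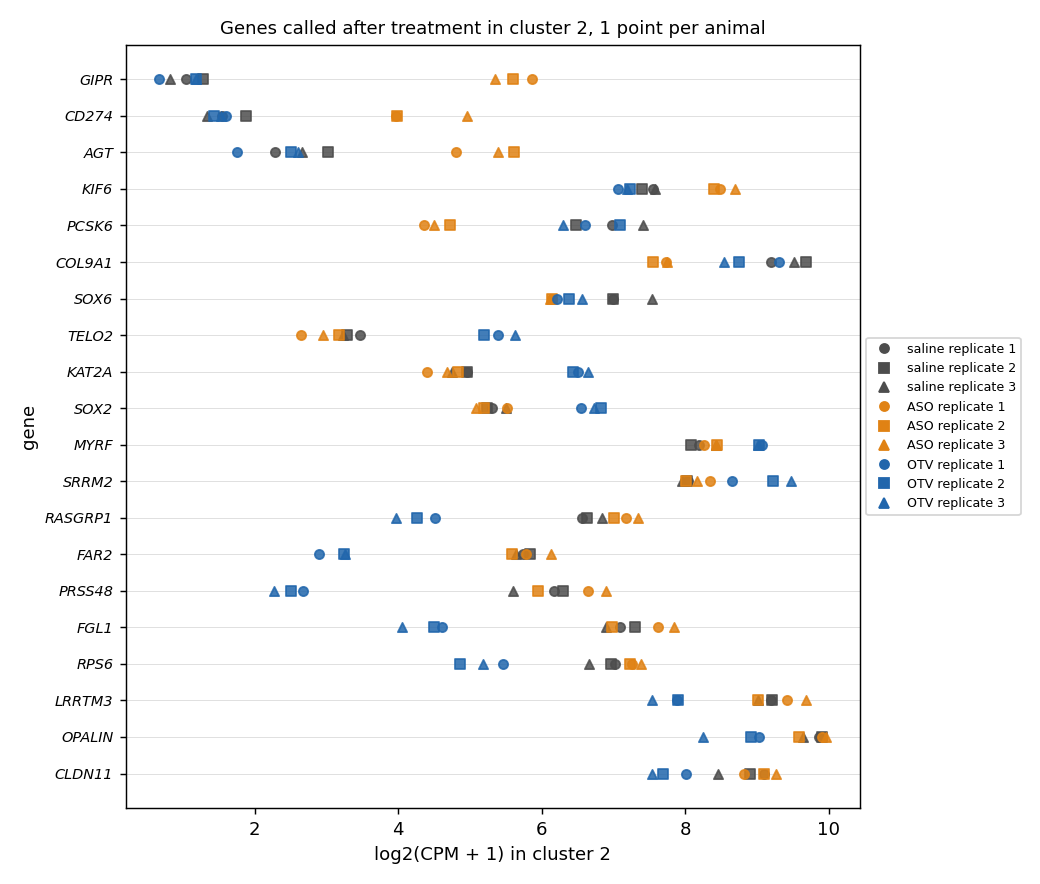
The level of 20 genes called in cluster 2, as log2(CPM + 1) (x axis), with 1 point per animal, coloured by group and shaped by replicate. ASO animals stand apart from the other 6 for GIPR, CD274, AGT, KIF6, PCSK6 and COL9A1, and OTV animals stand apart for the genes from TELO2 down to CLDN11.

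OTV against ASO gave 3484 of 15135 genes (23%), 1462 higher (9.66%) and 2022 lower (13.4%). The count was 2260 without ASO replicate 1 and 1858 with totals thinned to be equal. This contrast shares its animals with both others. Myeloid markers summed to 45.5 to 50.5 CPM in the OTV and 24.6 to 37.0 CPM in the ASO animals, without overlap. Neuron markers summed to 214 to 279 and 177 to 202 CPM, also without overlap, while OPC and astrocyte sums overlapped. The part of these cell types in the calls was not tested. GIPR was lower in the OTV animals (log2 change -5.64) and PADI2, an enzyme that citrullinates myelin proteins, was higher by 1.49 (SE 0.15, edgeR adjusted p = 0.00013). PADI2 stood at 161, 133 and 136 CPM in saline, 109.6, 112 and 113 CPM in ASO and 338, 309.8 and 246 CPM in OTV animals, so that the OTV animals were above all others. Of the myelin genes 5 of 11 were lower in OTV than in ASO animals, beside 13.4% of all genes, with a list median of -0.64 against -0.01 over all genes tested. MOG was one of them, at 1101, 985 and 1159 CPM in ASO and 774, 628 and 576.5 CPM in OTV animals (log2 change -0.64, SE 0.16, edgeR adjusted p = 0.0161). Without ASO replicate 3, OTV replicate 2 or OTV replicate 3 that call was lost, with an edgeR adjusted p of at most 0.0571.

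All 13 mitochondrially encoded genes were called higher in OTV than in ASO animals, where 9.66% of all genes were, and 4 to 7 of the 13 had no UMI in cluster 2 of each ASO animal. Of 14 splicing genes 7 were higher and none lower, beside the same 9.66%, among them SRSF6 (0.62) and DDX5, an RNA helicase (0.56). HSPA8, a chaperone of the cytosol, and NKX2-2 had log2 changes of -1.53 and -1.17, calls that 5 and 7 of 15 alternatives ended (highest edgeR adjusted p 0.0694 and 0.120).

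Few genes were called with a response in cluster 2 that differed from that of the other oligodendrocytes. Higher and lower here mean a log2 change that was more positive or more negative in cluster 2. In a fit of both sums of each animal with the animal as a block, 4 of 16648 genes (0.024%) were called by edgeR with a different response in the ASO contrast with saline, all of them higher in cluster 2, a direction that turned to 2 higher and 13 lower with nuclei drawn to equal numbers per bin of 500 UMIs and to 13 and 31 without a filter. That count was 27 without ASO replicate 3, 9 without OTV replicate 3, 2 without saline replicate 2, 1 without ASO replicate 1 or OTV replicate 2, and 0 without ASO replicate 2, where edgeR gave 515 genes an unadjusted p under 0.05. The OTV contrast with saline gave 16 such genes (0.0961%), 4 higher (0.024%) and 12 lower (0.0721%), which became 6 and 3 with totals thinned, 4 and 2 with equal UMI bins and 8 and 4 with clusters 0 and 1 alone as the comparison. Its total was 202 without a filter, 99 without OTV replicate 1, 42 without cluster 8, 38 without ASO replicate 3, 10 without OTV replicate 2, 8 without saline replicate 1 or ASO replicate 1 and 3 without saline replicate 2. OTV against ASO gave 74 (0.444%), 16 higher (0.0961%) and 58 lower (0.348%), and 220 without a filter. Its split became 7 higher and 9 lower with equal UMI bins, and 10 and 12 with clusters 0 and 1 alone as the comparison. Leaving out ASO replicate 1, 2 or 3 gave 24, 20 and 44, leaving out OTV replicate 2 or 3 gave 36 and 43, and leaving out saline replicate 2 gave 48. At an unadjusted p under 0.05 there were 608, 1250 and 1410 genes, where 832 are expected by chance.

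LIMK2, a kinase that acts on cofilin, was among the more abundant of these genes. Its means over saline, ASO and OTV animals were 144, 152 and 80.4 CPM in cluster 2, and 139.7, 144 and 106 CPM in the other oligodendrocytes. Its fall in OTV against saline was wider in cluster 2 by -0.43 on the log2 scale (SE 0.08, edgeR adjusted p = 0.0131). NME9, a thioredoxin domain protein, had means of 54.1, 60.4 and 18.9 CPM in cluster 2 and 58.4, 69.9 and 35.7 CPM in the others, a response difference of -0.81 in OTV against saline (SE 0.12, edgeR adjusted p = 0.00113). GRIA4, a subunit of AMPA receptors, had means of 72.2, 34.4 and 229 CPM in cluster 2 and 71.7, 44.5 and 127 CPM in the others, a response difference of 1.20 in OTV against ASO (SE 0.14, edgeR adjusted p = 0.00214).

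None of the 3 held with only clusters 0 and 1 as the comparison, and LIMK2 and NME9 did not hold with nuclei of both sets drawn to equal numbers per bin of 500 UMIs. Their highest edgeR adjusted p over the alternatives was 0.928, 0.604 and 0.214. For OTV against saline LIMK2 was lost in 7 of 15 alternatives in all, among them without saline replicate 1, saline replicate 2, ASO replicate 1 or OTV replicate 2.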

How the data were processed

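The authors deposited raw UMI counts for 29128 features in 79994 nuclei, with a table giving each nucleus its animal, cell type, cluster, UMI total, percent of ribosomal UMIs and a doublet score as a fraction. Per the submitters' processing notes, Cell Ranger 6.1.2, Seurat 4 and the build GRCh38.p13 were used, while features without a symbol carry macaque identifiers, so the annotation behind the counts was not settled here. Doublets were not called again, since the deposited table calls every nucleus a singlet. The deposited percent and fraction columns support no result. The labels name separate animals.

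Counts were summed per animal over cluster 2 and over the other oligodendrocytes (totals are in the report, and more UMIs give less counting error). The sums were fitted with edgeR 4.0.16 in R 4.3.3 (TMM factors, filterByExpr, robust quasi-likelihood fit of all 9 animals, Benjamini-Hochberg over all genes tested, called under 0.05). Response differences came from the interaction of treatment and nucleus set in a model blocked by animal. The standard error is the size of the log2 change divided by the root of F. MALAT1 shares were compared by exact permutation over animals. Intervals cover counting error only, except that of the MALAT1 response difference, which comes from the fit.

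Genes were named by a rule: with at least 20 CPM, up to 15 higher and 12 lower in cluster 2 with the largest smallest difference over animals; up to 8 called genes per contrast and direction without overlap between the groups; up to 5 response differences per contrast and direction; MALAT1; and up to 4 members per list. Not every gene the rule gives is described, and some are not reported here. Members, rule and the 15 gene lists were chosen with earlier results of these data known. Both fits were tested on simulated data with known changes. Alternatives were DESeq2 1.42.0 (its size factors and its Wald test), no filter, the 6 animals compared, thinning, nuclei of at least 2000 UMIs, leaving out cluster 8, a pseudocount of 5 CPM and leaving out each animal. Bins of 500 UMIs and clusters 0 and 1 alone as the comparison were added after seeing the data.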

Additional observations from a re-analysis of the deposited data

Results flagged for a closer look

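In these genes the response of cluster 2 differed from that of the other oligodendrocyte nuclei, by edgeR's test of the interaction with Benjamini-Hochberg adjustment. Positive values, given as a higher response, mean a log2 change that was more positive in cluster 2, by a wider rise or a smaller fall. LRRTM3, for example, fell from 674 CPM in ASO to 219 CPM in OTV animals in cluster 2, and from 626 to 159 CPM in the others. No cause was tested.

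For ASO against saline the response was higher in cluster 2 for CCDC85A (1.47) and GPR158 (0.54). CCDC85A stood at 3.50 and 10.9 CPM in cluster 2, and at 7.35 and 8.47 CPM in the others. GPR158, an orphan receptor, stood at 87.6 and 95.5 CPM against 109.96 and 90.4 CPM. CCDC85A and GPR158 lost their calls in 5 of 15 alternatives each, among them without saline replicate 2, ASO replicate 2 or OTV replicate 2 and with equal UMI bins.

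For OTV against saline it was higher for NAV2 (1.25), PHLDB2 (2.51) and OTOP1 (2.10), and lower for DNAH17 (-1.71), NME9 (-0.81), MTURN (-0.53), L3MBTL4 (-3.03) and LIMK2 (-0.43). OTOP1, a proton channel, stood at 0.54 and 14.2 CPM in saline and OTV animals in cluster 2, and at 3.56 and 33.2 CPM in the others. DNAH17, a dynein heavy chain, stood at 12.8 and 2.89 CPM in cluster 2 and at 10.4 and 6.99 CPM in the others. L3MBTL4 stood at 3.63 and 4.10 CPM in cluster 2 and at 3.83 and 19.1 CPM in the others. These values rest on few UMIs per animal in cluster 2, with 1 to 159 for OTOP1 and 7 to 356 for DNAH17. PHLDB2 had 3 to 37 and L3MBTL4 6 to 33. Each of the 8 calls was lost in at least 2 of 15 alternatives, and clusters 0 and 1 alone as the comparison ended all of them but that of NAV2, which equal UMI bins ended.

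For OTV against ASO it was higher for GRIA4 (1.20), RORA (0.44), PAK3 (1.43), LRRTM3 (0.36) and PLEKHH2 (0.42), and lower for LIMK2 (-0.49), ROR2 (-2.19), PLPPR1 (-1.05), NPY (-2.97) and NME9 (-0.69). RORA, a nuclear receptor, stood at 95.3 and 188 CPM in ASO and OTV animals in cluster 2, and at 92.0 and 129 CPM in the others. ROR2, a receptor for WNT5A, stood at 26.5 and 3.53 CPM in cluster 2 and at 15.3 and 9.00 CPM in the others. NPY, neuropeptide Y, had 0 to 51 UMIs per animal in cluster 2. GRIA4 lost its call in 1 of 15 alternatives, with clusters 0 and 1 alone, and each of the other 9 lost theirs in 2 to 5. Equal UMI bins ended 7 of them, those of RORA, PAK3, LIMK2, ROR2, PLPPR1, NPY and NME9, and clusters 0 and 1 alone ended those of PAK3, LRRTM3, PLEKHH2, LIMK2, ROR2, PLPPR1 and NME9. RORA, PAK3 and LRRTM3 also lost theirs without OTV replicate 3, and ROR2 and NPY without OTV replicate 1. PLEKHH2 lost its call without ASO replicate 2 or any single OTV replicate, PAK3 without ASO replicate 2 and LRRTM3 without ASO replicate 1 or 3. The highest edgeR adjusted p over these alternatives was 0.985, for LRRTM3.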

How the results depend on the processing

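Counts of calls moved with single settings. For ASO against saline the 37 calls became 306 with DESeq2's Wald test, 100 without a filter on low counts and 24 with totals thinned to be equal, and 10 to 61 with 1 animal left out. For OTV against saline thinning gave 1247 calls, and leaving out 1 animal 1337 to 2404. For OTV against ASO thinning gave 1858 calls, and leaving out 1 animal 2260 to 3755. Thinning leaves fewer counts in most animals.

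Response differences for ASO against saline became 44 without a filter (13 higher and 31 lower), 15 with equal UMI bins (2 and 13) and 1 with clusters 0 and 1 alone. Leaving out 1 animal gave 0 (without ASO replicate 2, where 515 genes had an unadjusted p under 0.05) to 27 (without ASO replicate 3), with 2 without saline replicate 2, 1 without ASO replicate 1 or OTV replicate 2 and 9 without OTV replicate 3. For OTV against saline they became 202 without a filter, 9 thinned (6 higher and 3 lower), 42 without cluster 8 and 6 with equal UMI bins (4 and 2). Leaving out 1 animal gave 3 (without saline replicate 2) to 99 (without OTV replicate 1), with 8 without saline replicate 1 or ASO replicate 1, 38 without ASO replicate 3 and 10 without OTV replicate 2. For OTV against ASO they became 220 without a filter, 16 with equal UMI bins (7 higher and 9 lower) and 22 with clusters 0 and 1 alone (10 and 12). Leaving out 1 animal gave 20 (without ASO replicate 2) to 110 (without OTV replicate 1), with 48 without saline replicate 2, 24 without ASO replicate 1, 44 without ASO replicate 3, 36 without OTV replicate 2 and 43 without OTV replicate 3. With DESeq2's size factors the split of higher and lower differences went from 16 and 58 to 24 and 47 for OTV against ASO, and from 4 and 12 to 7 and 11 for OTV against saline. With clusters 0 and 1 alone, the response differences of LRRTM3 (-0.011) and PLPPR1 (0.29) in OTV against ASO reversed. The cause was not tested.

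Genes higher than in the other oligodendrocytes in every animal were 286 with each nucleus thinned, 325 with equal UMI bins, 267 against clusters 0 and 1 alone and 542 to 806 with 1 animal left out, with 806 without saline replicate 3. The lower ones were 417 thinned and 317 against clusters 0 and 1 alone. Of the 27 genes named for setting cluster 2 apart, 26 moved by more than their SD over animals with clusters 0 and 1 alone, each toward 0 without a change of sign, such as NTN4 to 0.39 and GSN to -1.16. The OTV share of cluster 2 was 19.2% at 2000 UMIs or more. Of the values of single genes in cluster 2 under the alternatives, 1390 kept direction and call, 220 lost the call and 7, all of MALAT1 in OTV against ASO, gained it. No paired analysis was possible because nothing in the labels ties an animal of one group to an animal of another.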
